A study of Mus musculus with 14 samples.

Results

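Hepatokines are proteins that the liver secretes into blood and that act on other organs. The set described here holds 8 such regulators of metabolism: Fgf21, Angptl4, Angptl6, Lect2, Ahsg, Fetub, Rbp4 and Gdf15. Each gene was to be read from a probe set that the platform annotation pairs with that symbol alone, and 6 of the 8 members were measured in this way, among 19237 genes in all. Angptl6, which encodes an angiopoietin-like growth factor, has 2 probe sets, each paired with the gene Shfl as well, so no value is given for it. Gdf15, a stress-induced hormone of the TGF-beta superfamily, was not listed under a probe set and was not analysed here.

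The values come from liver RNA of mice aged 17 to 19 weeks, kept 5 to a cage, fed ad libitum and killed at 7 am, with 1 array for each biological replicate. One group of 7 mice was wild type for LRH-1 (WT), and the other 7 carried the K289R form of LRH-1, in which an arginine replaces a lysine. LRH-1 is the nuclear receptor encoded by Nr5a2, and this lysine is known as a site where SUMO is attached to it. Sex, litter and batch are not given in the sources used here. Levels are given in log2 units, as log2(intensity + 1), and a difference is always K289R minus WT. In whole liver, fewer cells of a type and less RNA per cell cannot be told apart.

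As background, FGF21 is a fasting and stress hormone that signals through FGF receptors joined to the co-receptor beta-Klotho. ANGPTL4 inhibits lipoprotein lipase and so slows the clearance of plasma triglycerides. Fetuin-A, the product of Ahsg, binds mineral in plasma and inhibits the insulin receptor kinase, fetuin-B (Fetub) inhibits the egg protease ovastacin, RBP4 carries retinol in plasma together with transthyretin, and LECT2 is a chemotactic protein linked to insulin resistance of muscle. PPAR-alpha is known to act on Fgf21 and Angptl4, and ATF4 on Fgf21 and Gdf15.

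Stretches of 250 bases before the annotated start are shown for the 3 genes that passed the test of genotype, and for Ahsg, which lies beside Fetub. They are RefSeq sequences of GRCm38.p6, written 5′ to 3′ in the direction of the gene. Capitals mark matches on either strand to TGATGNAAT, a composite site of C/EBP with ATF factors, to the E-box letters CACGTG, or to the TATA box, searched with the letters TATAAA.
Fgf21, chr7:45615491-45615740, minus strand: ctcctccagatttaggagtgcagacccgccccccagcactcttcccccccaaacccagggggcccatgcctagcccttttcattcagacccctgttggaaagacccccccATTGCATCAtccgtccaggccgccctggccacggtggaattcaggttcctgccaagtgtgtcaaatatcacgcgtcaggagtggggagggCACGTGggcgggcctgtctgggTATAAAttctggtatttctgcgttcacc
Rbp4, chr19:38125322-38125571, minus strand: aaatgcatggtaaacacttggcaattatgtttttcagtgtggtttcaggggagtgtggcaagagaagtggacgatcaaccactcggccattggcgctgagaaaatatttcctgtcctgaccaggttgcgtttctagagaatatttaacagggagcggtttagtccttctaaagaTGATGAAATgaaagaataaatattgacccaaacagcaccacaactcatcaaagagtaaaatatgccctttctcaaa
Fetub, chr16:22918132-22918381, plus strand: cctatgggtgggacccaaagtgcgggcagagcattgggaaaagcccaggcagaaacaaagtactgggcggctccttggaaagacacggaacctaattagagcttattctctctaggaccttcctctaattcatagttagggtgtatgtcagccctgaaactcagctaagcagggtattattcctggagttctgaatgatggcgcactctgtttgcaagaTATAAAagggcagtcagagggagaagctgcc
Ahsg, chr16:22891765-22892014, plus strand: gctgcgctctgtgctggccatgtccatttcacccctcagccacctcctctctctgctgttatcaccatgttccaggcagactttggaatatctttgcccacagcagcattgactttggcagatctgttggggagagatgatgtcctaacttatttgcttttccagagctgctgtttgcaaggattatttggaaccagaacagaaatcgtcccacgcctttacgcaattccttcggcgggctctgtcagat

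The promoter table held 7 windows for 5 of the 6 measured members, with Angptl4 missing. Besides those motifs, CAAGGNCA (a site for LRH-1) and the DR1 repeat of nuclear receptors, which is read by PPAR-alpha with RXR, were searched on both strands, and none of the 7 windows held these letters. CAAGGNCA was present in 5.53% of the 32851 windows of the table and the repeat in 0.0335%. The composite site was present in 0.816% of the windows. It stands 140 bases before the start of Fgf21 on the opposite strand, as ATTGCATCA, and 76 bases before the Rbp4 start shown above. An E-box, found in 6.02% of the windows, stands 50 bases before the start of Fgf21. TATAAA was present in 12.4% of the windows, and it stands 28 bases before the start of Fgf21 and 31 before the Fetub start shown above. Fetub has a second window in the table, chr16:22919972-22920221 on the plus strand, not shown here, without TATAAA. Rbp4 has a second window in the table, chr19:38124812-38125061 on the minus strand, not shown here, with TATAAA 28 bases before its start. Such matches are descriptions of the sequence and do not show binding.

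Transcripts of Fgf21, Fetub and Rbp4 were higher in K289R livers, while Angptl4, Lect2 and Ahsg did not pass. Of the 6 measured members, 3 passed limma's Benjamini-Hochberg adjusted p of 0.05 over all genes, all of them higher in K289R. Among all 19237 genes 19.1% passed, 8.37% higher and 10.8% lower. Of these 3 calls only that of Fgf21 was kept with median centring, or with the sets of arrays described below as random blocks. The groups did not overlap for 1 of the 6 members, Rbp4, and for 7.54% of all genes. With quantile normalization or median centring the Rbp4 groups did overlap. The median difference of the 6 members was 0.19 in log2 units, against 0.05 for all genes. The log2 difference was 0.40 for Fgf21 (a fold of 1.32), 0.25 for Fetub (1.19) and 0.13 for Rbp4 (1.09). The median absolute difference of all called genes was 0.36, below that of Fgf21 and above those of Fetub and Rbp4.

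**Figure D1:**
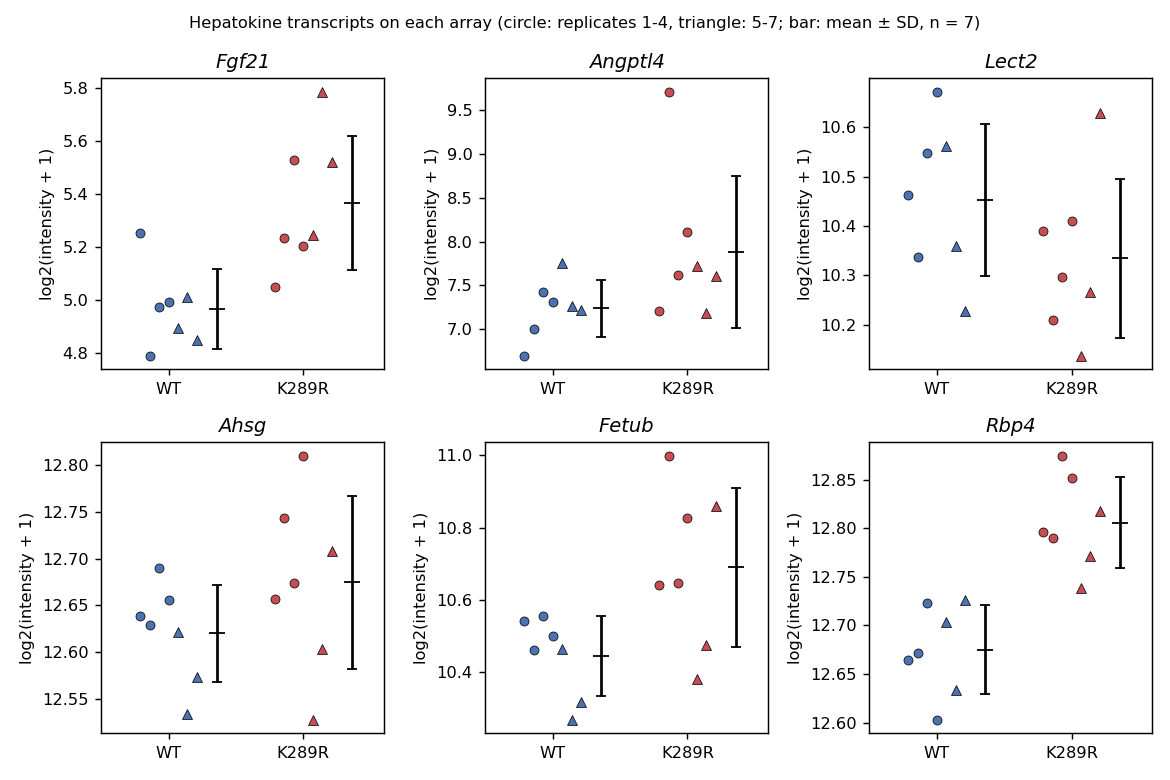
Levels of the 6 measured members on each of the 14 arrays, in log2(intensity + 1), with circles for replicates 1 to 4, triangles for replicates 5 to 7, and bars for the mean and SD of 7 arrays. Each panel has its own scale that does not start at 0. The Rbp4 values of both genotypes do not overlap, and 1 K289R array lies far above the others for Angptl4.

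Before the single genes, 1 property of the arrays has to be stated. The labels name no batch, but an earlier analysis of these data had found that replicates 1 to 4 and replicates 5 to 7 form separate sets within each genotype. Values are therefore also given within each set, and with the 4 sets as random blocks. That fit uses a single correlation of 0.178 for all genes. No label links a set of WT arrays to the K289R set of the same numbers. A difference within a set, and the interaction of genotype and set, therefore match the genotypes by replicate number alone. Whether such sets share a batch is not known. For some genes the K289R arrays do not divide in this way, and how many was not counted. For Cyp4a14, K289R replicate 5 read 9.20, near replicates 1 to 4 (9.60 to 10.17), while replicates 6 and 7 read 6.97 and 6.07. Over the 35556 probe sets the interquartile range of an array was 2.63 to 2.87 in WT and 2.59 to 2.82 in K289R livers, in log2 units. K289R replicates 6 and 7 had the narrowest ranges of all arrays, 2.60 and 2.59. They also had the highest median log2 levels of olfactory receptor genes, 3.51 and 3.52. Over all genes the median difference was 0.01 among replicates 1 to 4 and 0.07 among replicates 5 to 7.

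Fgf21 lay at 4.79, 4.98 and 5.25 in WT livers (lowest, median and highest of 7, log2) and at 5.05, 5.25 and 5.79 in K289R livers. The groups overlapped, since WT replicate 1 was the highest of its group, and 3 of 7 K289R arrays lay above each WT array. The rise was 0.40 ± 0.10 (log2 difference ± SE, 95% confidence interval 0.18 to 0.62, limma adjusted p = 0.00911), and the exact permutation p, from 3432 possible groupings of the arrays, was 0.0035 (2-sided). In intensity the median was 30.5 in WT and 36.9 in K289R livers. The values come with no detection call, so whether the Fgf21 signal stood above background was not tested, and its fold is one of probe set intensity.

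The rise of Fgf21 was not the same size in both sets of arrays. Replicates 1 to 4 gave a difference of 0.25 (adjusted p = 0.218). Replicates 5 to 7 gave 0.60 (adjusted p = 0.0169). The interaction of genotype and set had an adjusted p of 0.581. With the sets as random blocks the call was kept (adjusted p = 0.0446), and without K289R replicates 6 and 7 the difference was 0.28 (adjusted p = 0.0391). Those arrays, which had the narrowest interquartile ranges, read 5.79 and 5.52 for Fgf21, and K289R replicate 3 read 5.53. Fgf21 is 1 of 22 fibroblast growth factor genes on the array, most of which have no known role in hepatocytes. Of the other 21, only Fgf11 passed, at 5.69 to 6.08 in K289R against 4.89 to 5.30 in WT livers, a difference of 0.78 ± 0.08 (log2 ± SE, adjusted p = 9.41e-07). FGF11 is an intracellular member of the family that is not secreted as a hormone. The median difference of these 21 genes was 0.03 among replicates 1 to 4 and 0.21 among replicates 5 to 7, where 20 of the 21 differences were above 0. This moved with the set in which Fgf21 differed most, and its part in that result was not tested. With the interquartile range of each array as a covariate the Fgf21 difference was 0.34 (adjusted p = 0.0065), and with quantile normalization it was 0.38 (adjusted p = 0.00583).

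Genes of FGF receptors, Klb and genes that respond to FGF signalling were read from the same livers. Fgfr4, the most prominent FGF receptor of hepatocytes, lay at 8.02 to 8.36 in WT and at 8.23 to 8.64 in K289R livers, and rose by 0.26 ± 0.08 (log2 ± SE, adjusted p = 0.0207). Fgfr2 differed by 0.30 ± 0.10 (adjusted p = 0.0369), a call kept in 4 of the 14 fits that each omitted an array. Both calls were lost with the sets as random blocks (adjusted p = 0.0841 for Fgfr4 and 0.146 for Fgfr2) and with median centring (0.0978 and 0.0889). Klb, which encodes beta-Klotho, differed by 0.20 ± 0.09 (adjusted p = 0.161) and passed with quantile normalization (adjusted p = 0.0325). Fgfr1 (-0.05 ± 0.09) and Fgfr3 (-0.02 ± 0.08) did not pass. Of 11 genes known to respond to FGF signalling in liver, 1 rose and none fell. That gene was Dusp6, a phosphatase that limits ERK signalling, at 8.05 to 8.54 in WT and 8.27 to 8.95 in K289R livers (0.45 ± 0.10, adjusted p = 0.00214). With 6 of 7 K289R arrays above each WT array, the Dusp6 values overlapped through K289R replicate 6 alone. Egr1, an immediate early gene, differed by 0.40 ± 0.26 (adjusted p = 0.324), and the receptor feedback inhibitor gene Spry4 by 0.13 ± 0.08 (adjusted p = 0.308).

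Angptl4 had the largest mean difference among the 6 members and also the widest spread. Its levels were 6.69, 7.26 and 7.75 in WT livers (lowest, median and highest, log2) and 7.19, 7.61 and 9.72 in K289R livers. The highest value belonged to K289R replicate 2, with the next K289R array, replicate 4, at 8.11, and the other 5 K289R arrays lay within the range of the WT arrays. The difference of 0.64 ± 0.28 (log2 ± SE, 95% confidence interval 0.06 to 1.23) had an adjusted p of 0.123, with an exact permutation p of 0.0484 (2-sided, not adjusted). Without K289R replicate 2 the difference was 0.34 (adjusted p = 0.141). Replicates 1 to 4 gave 1.06 (adjusted p = 0.0845) while replicates 5 to 7 gave 0.09 (adjusted p = 0.734), with an interaction of genotype and set at an adjusted p of 0.577.

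The rank of K289R replicate 2 among the K289R arrays was then read for other genes. Among the other 14 measured PPAR-alpha target genes it was the highest of the 7 K289R arrays for 7, including Cpt1a, Plin2 and Cyp4a14. For Lcn2, an acute-phase lipocalin, it read 8.96 where the other K289R arrays lay at 6.31 to 7.47. It also held the highest Fetub value and the highest Igfbp1 value, 9.65. It was the highest for 6 of 24 other liver-secreted regulators, 2 of 15 ATF4 target genes, 1 of 7 hepatocyte and 0 of 12 Kupffer cell markers. It was the lowest for 4 of the 15 ATF4 target genes, 2 of the 24 regulators and 1 of the 14 PPAR-alpha target genes. These counts were taken after the Angptl4 value was seen. How often this array was the highest over all genes was not counted, so they have no share to be read against. The share of this mouse in the Angptl4 difference is the one shown by leaving it out.

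Partners of ANGPTL4 moved little, apart from the protease that cuts it. Furin, which encodes a proprotein convertase known to cleave ANGPTL4, lay at 9.11 to 9.30 in WT and at 9.40 to 9.69 in K289R livers, with no overlap. Its rise was 0.40 ± 0.06 (log2 ± SE, adjusted p = 2.92e-05, and 0.000689 with the sets as random blocks). Furin was the 1 gene of 12 measured carriers, substrates and processing enzymes of the members that passed. The convertase genes Pcsk6 (0.03 ± 0.07) and Pcsk7 (0.04 ± 0.09) did not. Lpl, the lipoprotein lipase that ANGPTL4 inhibits, differed by -0.13 ± 0.09 (adjusted p = 0.354), its endothelial anchor gene Gpihbp1 by 0.02 ± 0.07 and its maturation factor gene Lmf1 by 0.08 ± 0.09.

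In the angiopoietin-like family 4 genes were measured, Angptl4 included, and Angptl8 was the 1 that passed. ANGPTL8 is a feeding-induced partner in the inhibition of lipoprotein lipase. Angptl8 lay at 9.88, 10.16 and 10.65 in WT livers (lowest, median and highest, log2) and at 8.97, 9.67 and 10.63 in K289R livers, where replicate 7 alone lay inside the WT range. It fell by 0.60 ± 0.18 (log2, SE, adjusted p = 0.0219), kept in 12 of the 14 fits that each omitted an array but lost with the sets as random blocks (adjusted p = 0.11). Angptl1 and Angptl7 each differed by -0.01 ± 0.07.

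**Figure D2:**
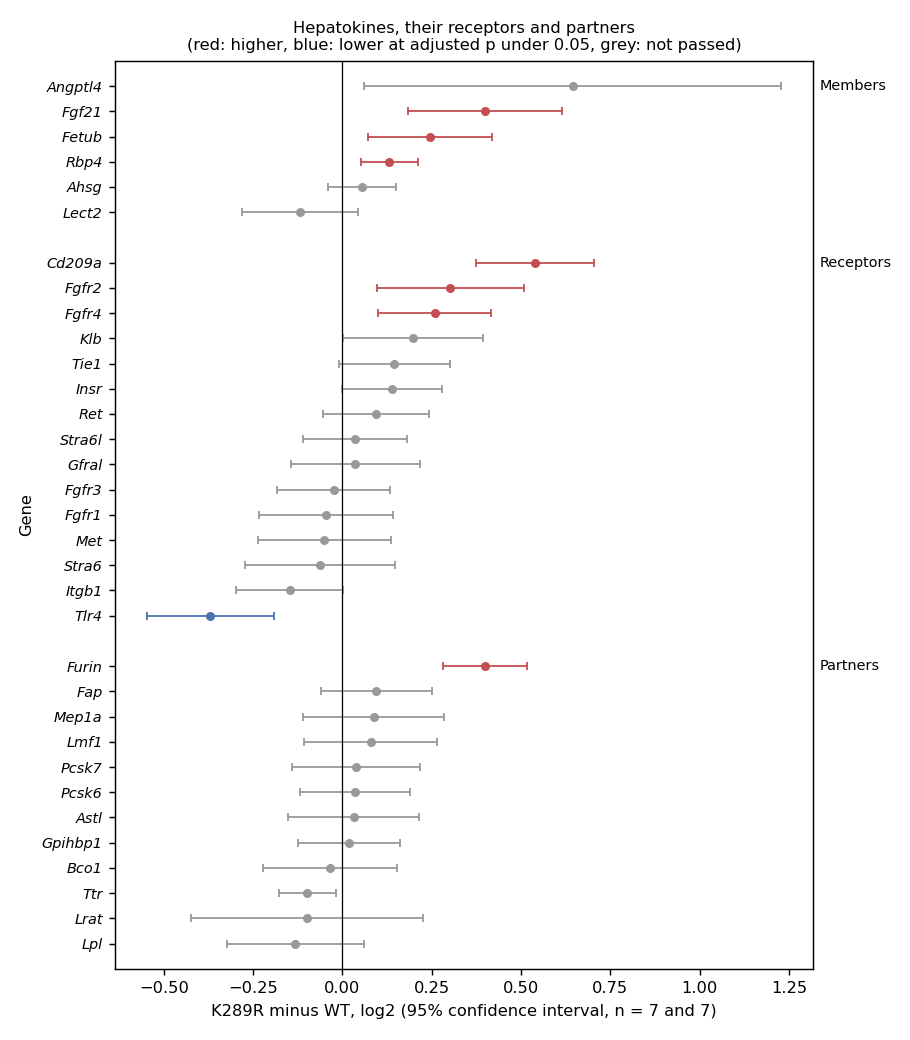
Differences K289R minus WT in log2 units for the 6 measured members, 15 receptors and 12 partners, with 95% confidence intervals from 7 WT and 7 K289R arrays. Red and blue points passed an adjusted p of 0.05, and grey points did not. Furin and Cd209a have the largest rises outside the members and Tlr4, a dim gene, the one fall that passed.

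Fetub and Ahsg encode the fetuins, secreted members of the cystatin superfamily. Fetub lay at 10.27, 10.47 and 10.56 in WT livers (lowest, median and highest, log2) and at 10.38, 10.65 and 10.999 in K289R livers. In K289R livers 5 arrays exceeded the whole WT range, while K289R replicates 5 and 6 lay within the WT range. Its rise was 0.25 ± 0.08 (log2 ± SE, 95% confidence interval 0.07 to 0.42, adjusted p = 0.043, exact permutation p = 0.0239). The difference was of like size in both sets, 0.26 among replicates 1 to 4 and 0.22 among replicates 5 to 7. The call itself was close to the threshold: it held in 4 of the 14 fits that each omitted an array and was lost with the sets as random blocks (adjusted p = 0.147).

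Ahsg lay at 12.53, 12.63 and 12.69 in WT livers (lowest, median and highest, log2) and at 12.53, 12.67 and 12.81 in K289R livers. The groups overlapped over most of their range, and the difference was 0.05 ± 0.05 (95% confidence interval -0.04 to 0.15, adjusted p = 0.449). The upper bound of that interval, 0.15, is smaller than the rise measured for Fetub. A test of the difference between both genes was not made.

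Of the member pairs, Ahsg and Fetub had the highest coefficient within each genotype, though neither relation passed after adjustment. Pearson's r between them was 0.958 in WT (exact permutation p = 0.00198, Spearman's rho 0.929 with exact p = 0.00675, n = 7). In K289R livers r was 0.882 (exact permutation p = 0.00972, Spearman's rho 0.893 with exact p = 0.0123, n = 7). Without the 2 arrays farthest from the median of Ahsg, r was 0.931 in WT and 0.983 in K289R livers. In total 30 such relations were computed, 15 pairs of members in each genotype, and after Benjamini-Hochberg adjustment the exact permutation p for this pair was 0.0595 in WT and 0.146 in K289R livers, so neither passed. No other pair had an unadjusted exact permutation p for r under 0.05 in either genotype. The sets are too small for a relation of their own. With the mean of each set removed, the coefficient between both genes over 14 arrays was 0.844, given as a description. With genotype means removed it was 0.898. Aqp11, Foxo3 and Nudt16 had higher ones with Ahsg (0.918 to 0.923), and Shq1, Lrg1 and Med1 with Fetub (0.908 to 0.923). A coefficient of this size was thus not found for this pair alone, though those genes were selected from many as the highest.

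**Figure D3:**
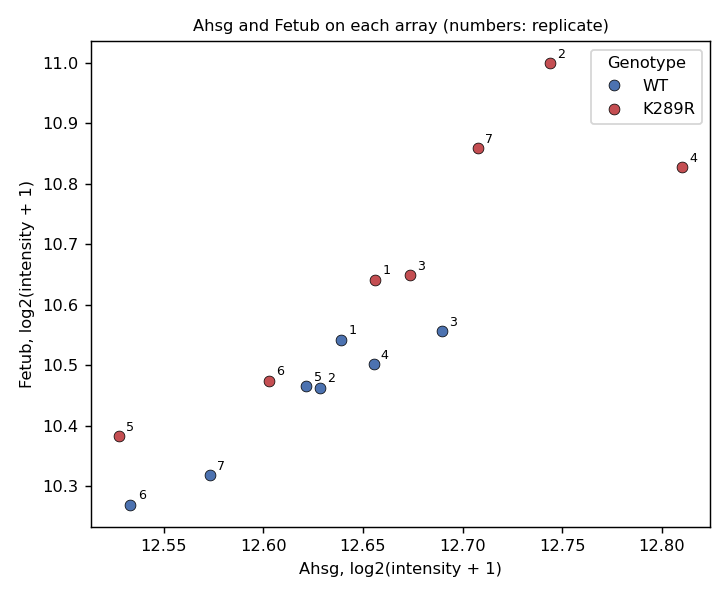
Level of Fetub against level of Ahsg on each array, both in log2(intensity + 1), with 7 WT and 7 K289R arrays and the replicate number beside each point. The points of each genotype run along a line, and at a like Ahsg level the K289R points tend to lie higher on the Fetub axis than the WT points.

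Ahsg, Fetub, Hrg, Kng2 and Kng1 are consecutive protein-coding genes along mouse chromosome 16 in the gene table of GRCm38.p6. All encode cystatin family plasma proteins. Over the 14 arrays the deviations of Hrg, which encodes histidine-rich glycoprotein, from its genotype means had a coefficient of 0.826 with those of Ahsg and 0.838 with those of Fetub. For the kininogen gene Kng1 the coefficients were 0.458 and 0.393, and for Kng2 they were -0.29 and -0.19. With the set means removed they were 0.836 and 0.827 for Hrg, 0.218 and 0.171 for Kng1, and -0.48 and -0.29 for Kng2. Kng1 and Kng2 are near-identical copies, so each of their values is uncertain. Arrays share their labelling and scanning, which adds to any such coefficient. Neither Hrg (0.08 ± 0.06, log2 difference ± SE), Kng1 (0.10 ± 0.04) nor Kng2 (-0.08 ± 0.07) passed, and Kng1 did so with quantile normalization (adjusted p = 0.0372).

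Of the 7 measured cystatin family genes 2 rose, Fetub and Cst3, and 1 fell. Cst3, which encodes secreted cystatin C, lay at 10.83 to 11.10 in WT and 11.42 to 11.62 in K289R livers and rose by 0.54 ± 0.05 (adjusted p = 3.92e-07). Cstb, which encodes the intracellular cystatin B, lay at 7.86 to 8.40 and at 7.32 to 7.56 and fell by 0.70 ± 0.08 (log2, SE, adjusted p = 2.74e-06). Neither gene's groups overlapped, as was the case for 7.54% of all genes. Receptors and targets of the fetuins did not pass with the exception of Tlr4. Insr, the insulin receptor, differed by 0.14 ± 0.07 (adjusted p = 0.165) and passed with quantile normalization (adjusted p = 0.0184). Tlr4, a receptor for bacterial lipopolysaccharide to which fetuin-A can present fatty acids, lay at 4.04 to 4.47 in WT and at 3.66 to 4.08 in K289R livers and fell by 0.37 ± 0.09 (log2, SE, adjusted p = 0.0037). Tlr4 is a dim gene here, and whether its signal stood above background was not tested. Olfactory receptors had a median of 3.34 to 3.52 across the arrays. Astl, which encodes the fetuin-B target ovastacin of the egg, had means of 3.82 and 3.85, below those of Tlr4.

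Rbp4 had the smallest rise of the 3 members that passed. It was the 1 member whose groups did not overlap, as was the case for 7.54% of all genes. Its levels were 12.60, 12.67 and 12.73 in WT livers (lowest, median and highest, log2) and 12.74, 12.80 and 12.87 in K289R livers. Each K289R array lay above each WT array, and the exact permutation p was 0.000583, the smallest that 3432 groupings can give. The rise was 0.13 ± 0.04 (95% confidence interval 0.05 to 0.21, limma adjusted p = 0.02).

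The Rbp4 call depended on how the arrays were scaled. With quantile normalization the difference was 0.06 (adjusted p = 0.225) and the groups overlapped, with 5 of 7 K289R arrays above each WT array. With median centring it was 0.11 (adjusted p = 0.123), with 4 of 7 arrays above. Replicates 1 to 4 gave 0.16 (adjusted p = 0.0297) and replicates 5 to 7 gave 0.09 (adjusted p = 0.472). The rise kept its direction in each of these fits.

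Genes of retinol handling did not move as a group. Of 19 measured genes of vitamin A storage and transport, Rbp4 included, 2 rose and 3 fell. Ttr, whose product transthyretin binds RBP4 in plasma, lay at 12.64, 12.73 and 12.76 in WT livers (lowest, median and highest, log2) and at 12.55, 12.63 and 12.69 in K289R livers. Its difference was -0.10 ± 0.04 (adjusted p = 0.0792), opposite in sign to that of Rbp4, and it passed with quantile normalization (-0.14, adjusted p = 0.00573). The receptor genes Stra6 (-0.06 ± 0.10) and Stra6l (0.04 ± 0.07) did not pass, and neither did Lrat (-0.10 ± 0.16), which encodes the enzyme that esterifies retinol for storage in stellate cells. The retinol dehydrogenase genes Rdh10 and Rdh16 fell by 0.28 ± 0.08 and 0.44 ± 0.14 (log2, SE), the retinal dehydrogenase gene Aldh1a1 fell by 0.16 ± 0.05, and Crabp1, which encodes a retinoic acid binding protein, rose by 0.29 ± 0.10. The whole difference of Rdh16 came from replicates 5 to 7 (-1.02, against 0.00 among replicates 1 to 4), and with the sets as random blocks none of the 5 genes, Rbp4 included, kept its call.

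Lect2 lay at 10.23, 10.46 and 10.67 in WT livers (lowest, median and highest, log2) and at 10.14, 10.30 and 10.63 in K289R livers. The groups overlapped widely, with 2 K289R arrays below each WT array. Its difference of -0.12 ± 0.08 (95% confidence interval -0.28 to 0.04, adjusted p = 0.322, exact permutation p = 0.18) did not pass. LECT2 is known to bind the receptors encoded by Met, Tie1 and Cd209a. Cd209a, a C-type lectin receptor, lay at 8.14 to 8.37 in WT and at 8.53 to 9.03 in K289R livers with no overlap, and rose by 0.54 ± 0.08 (adjusted p = 4.84e-05). This was also the case with the sets as random blocks (adjusted p = 0.000596). Met (-0.05 ± 0.09) and Tie1 (0.15 ± 0.07) did not pass, though Tie1 did with quantile normalization (adjusted p = 0.0392).

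For the unmeasured Gdf15, its brain receptor gene Gfral had means of 3.00 in WT and 3.03 in K289R livers. These lay below the olfactory receptor median of 3.34 to 3.52. The coreceptor gene Ret differed by 0.09 ± 0.07. In all, 3 of 15 receptor genes rose and 1 fell with a median difference of 0.04 in log2 units, close to the 0.05 of all genes. Among 13 measured TGF-beta family ligands and antagonists 1 rose and 3 fell. Inhbc, which encodes the liver activin subunit beta C, rose by 0.49 ± 0.07 (adjusted p = 2.2e-05) with no overlap of the groups. Inhba fell by 0.66 ± 0.14 (log2, SE, adjusted p = 0.0025) and Inhbe, the beta E subunit and an ATF4 responsive gene, by 0.41 ± 0.13 (adjusted p = 0.0341, and 0.102 with the sets as random blocks). Bmp2 fell by 0.31 ± 0.10 (adjusted p = 0.0279, kept in 9 of the 14 fits that each omitted an array), a call lost with the sets as random blocks (adjusted p = 0.109).

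Factors known to act on the promoters of the members were higher where they passed. Of 19 measured, 5 rose and none fell. Ppara lay at 9.45 to 9.67 in WT and 9.85 to 10.36 in K289R livers and rose by 0.48 ± 0.07 (adjusted p = 5.04e-05), and its partner genes Rxrb (0.38 ± 0.06) and Rxra (0.27 ± 0.08) rose too. Mlxipl, which encodes the carbohydrate-sensing factor ChREBP, rose by 0.28 ± 0.06, and the corepressor gene Nr0b2 by 0.61 ± 0.16. Rxra (adjusted p = 0.116) and Nr0b2 (0.0625) lost their calls with the sets as random blocks. Atf4 (-0.12 ± 0.07), Nr5a2 and the coactivator gene Ppargc1a (-0.17 ± 0.10) did not pass.

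Target genes of PPAR-alpha were read as well. Of 15 measured, Fgf21 and Angptl4 included, 2 rose, 1 of them Fgf21, and 2 fell. Cpt1a, the carnitine palmitoyltransferase of fatty acid import, rose by 0.30 ± 0.10, while the peroxisomal oxidation gene Ehhadh fell by 0.27 ± 0.09 and Fabp1, a fatty acid binding protein gene, by 0.26 ± 0.07. With the sets as random blocks Cpt1a (adjusted p = 0.166) and Ehhadh (0.0728) lost their calls. Without Fgf21, the median difference of the other 14 was 0.31 among replicates 1 to 4 and -0.38 among replicates 5 to 7, with 11 and 3 of them above 0. Cyp4a14 differed by 2.89 and by -2.12 in these sets, and Vnn1 by 0.95 and -1.08. For both genes K289R replicate 5 (9.20 and 8.62) lay above replicates 6 and 7, so the later set joins unlike arrays. Fgf21 was higher in K289R in both sets, by 0.25 and 0.60, with an interaction adjusted p of 0.581. The part of PPAR-alpha in the Fgf21 difference was not tested.

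Among 15 measured genes of the integrated stress response, Fgf21 included, 5 rose and none fell. Asns, asparagine synthetase, lay at 5.27 to 7.33 in WT and at 10.35 to 11.13 in K289R livers, a difference of 4.53 ± 0.28 (adjusted p = 8.78e-10). The amino acid transporter subunit gene Slc3a2 (0.54 ± 0.06), the cystathionase gene Cth (0.44 ± 0.06) and the glutathione-degrading Chac1 (0.39 ± 0.10) rose as well. With the sets as random blocks 4 of these 5 calls were kept, and that of Chac1 was lost (adjusted p = 0.062). Trib3 (0.15 ± 0.08), Atf3 (0.01 ± 0.10) and Psat1 (0.21 ± 0.09) did not pass. Without Fgf21 the median difference of the list was 0.18 among replicates 1 to 4 and 0.23 among replicates 5 to 7.

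**Figure D4:**
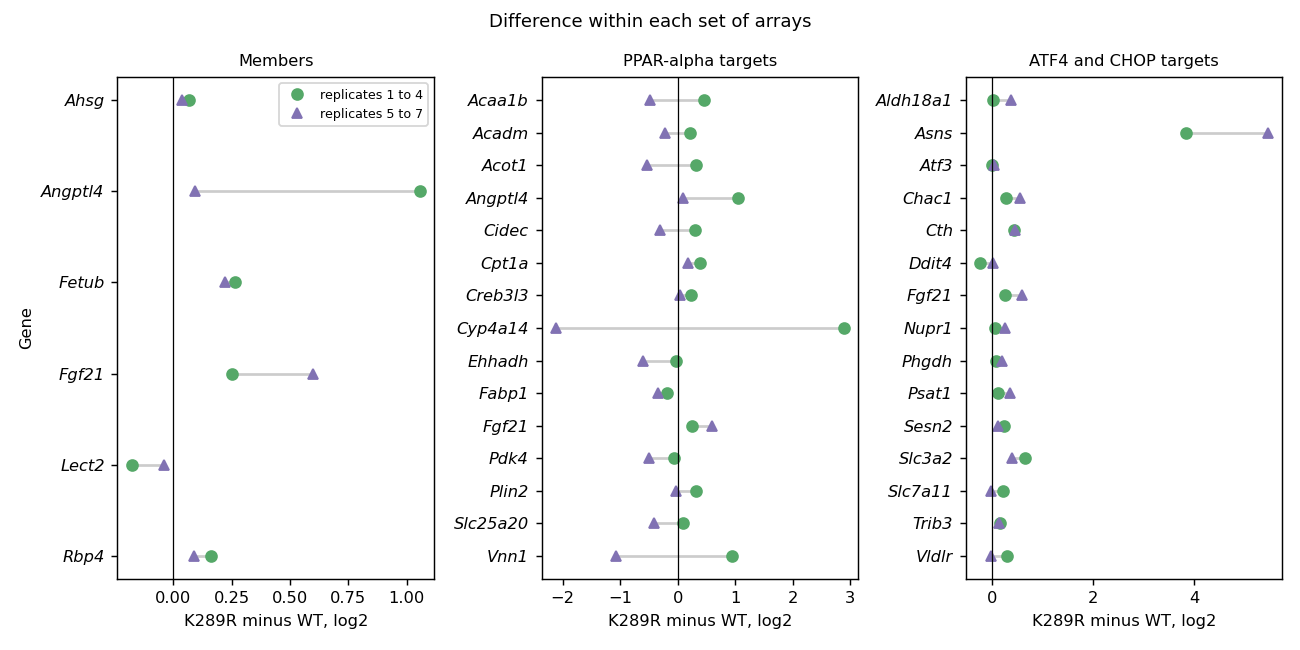
Difference K289R minus WT in log2 units for the members, PPAR-alpha targets, and ATF4 and CHOP targets, with circles for replicates 1 to 4 and triangles for replicates 5 to 7. The panels have separate scales. Without Fgf21, 11 of 14 PPAR-alpha targets lie above 0 among replicates 1 to 4 and 3 of 14 among replicates 5 to 7.

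Other secreted regulators of metabolism moved both ways. Of 24 measured, 4 rose and 6 fell, with a median difference of -0.01 in log2 units. The risers were Igfbp1, an insulin-suppressed binding protein of insulin-like growth factors (1.62 ± 0.37, log2 ± SE), Agt, which encodes angiotensinogen (0.53 ± 0.06), Itih3 (0.42 ± 0.08) and the sulfatase gene Arsb (0.24 ± 0.07). Agt lay at 11.16 to 11.47 in WT and 11.66 to 12.03 in K289R livers. The falls were those of Manf, an endoplasmic reticulum stress-induced factor (-0.85 ± 0.16), Angptl8 and Inhbe as given above, Orm1 (-0.40 ± 0.07), Igf1, the growth factor made by liver under growth hormone (-0.21 ± 0.05), and Selenop, the plasma carrier of selenium (-0.18 ± 0.04). Each K289R array lay below each WT array for Orm1, Igf1 and Selenop. Orm1 has near-identical copies, so its value is uncertain. Arsb, Angptl8 and Inhbe lost their calls with the sets as random blocks, and the other 7 kept them.

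**Figure D5:**
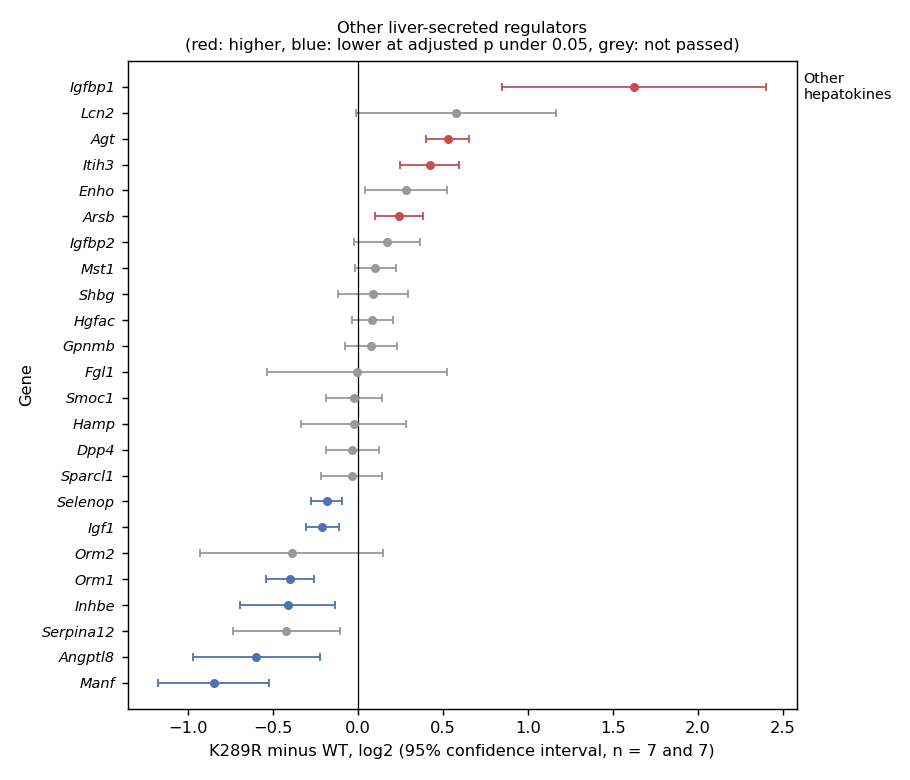
Differences K289R minus WT in log2 units for 24 other liver-secreted regulators, with 95% confidence intervals from 7 WT and 7 K289R arrays. Red points are higher and blue points lower at an adjusted p of 0.05, and grey points did not pass. Igfbp1 has the largest rise and Manf the largest fall.

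The labelled tissue showed its markers. Of 7 measured hepatocyte markers, Apoa1 rose (0.18 ± 0.04) and 6 did not pass, with Alb at means of 13.11 and 13.07. The summed level of these 7 markers was 84.52 to 84.88 in WT and 84.00 to 85.22 in K289R livers. Of 12 Kupffer cell and macrophage markers 1 rose and 4 fell, among them Vsig4 (-0.75 ± 0.12), and their sum was 87.95 to 91.20 in WT and 82.88 to 91.69 in K289R livers. Clec4f, which defines Kupffer cells, differed by -0.02 ± 0.09. Of 12 sinusoidal endothelial markers 4 rose and 2 fell, with sums of 94.65 to 97.67 and 94.33 to 98.84. Tlr4 and Cd209a are known from such non-parenchymal cells, and the part of these cells in their differences was not tested. Of 12 stellate cell markers 2 rose and 1 fell, of 8 adipocyte markers 1 rose and 1 fell with Adipoq at means of 3.42 and 3.30, of 7 lymphocyte and 7 neutrophil markers 1 each rose, and of 6 cholangiocyte markers none passed. With the sets as random blocks the calls higher and lower were 0 and 3 for Kupffer cell, 3 and 1 for endothelial, and 0 and 1 for stellate cell markers, no neutrophil marker passed, and the hepatocyte, adipocyte and lymphocyte counts were as given.

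By the same deviations from genotype means, the genes most like each member over the 14 arrays were named, as a description. For Angptl4 they were Susd6 (coefficient 0.93), Sbno2 and Tnfrsf1b (0.917 each), and all 3 had their highest value in K289R replicate 2, at 8.62 for Susd6, 7.49 for Sbno2 and 8.14 for Tnfrsf1b. For Fetub they were Shq1 (0.923), Lrg1 (0.909) and Med1 (0.908), and for Ahsg they were Aqp11, Foxo3 and Nudt16 (0.918 to 0.923). Lect2 was matched most closely by Fah, Hsd17b2 and Tmem86b (0.891 to 0.913), Rbp4 by Zc3h14, Dram2 and Prkcd (0.877 to 0.911), and Fgf21 by Tmem221, P3h2 and Cdh4 (0.838 to 0.884). The search ran over all genes with a mean above the median gene, so the highest coefficients were selected from many.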

How the data were processed

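RNA from the livers of 7 WT and 7 K289R mice was hybridised to Affymetrix whole-transcript arrays from 100 ng of total RNA. The deposited values are probe set intensities on a linear scale, and the submitters' processing notes name Affymetrix Expression Console; its version, the summarisation, the scaling between arrays and the genome build are not given in the sources used here. Arrays have no read depth, and their number limits the precision. Whether signals flatten near the top of the intensity range, where Ahsg, Rbp4 and Ttr lie, was not tested. Of 35556 probe sets, 21456 were paired with 1 symbol, 2376 with several (left out) and 11724 with none. Entrez identifiers linked 21277 of these to the GRCm38.p6 gene table, which replaced 2 symbols. For each of 19237 genes the probe set of highest mean level was kept, on log2(intensity + 1), a scale that understates the change of dim genes, with no filter on detection.

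K289R was compared with WT by limma 3.58.1 in R 4.3.3, with genotype alone, an intensity trend in the prior variance, 2-sided tests and Benjamini-Hochberg adjustment over all genes at 0.05. The code was tested on simulated data. Single members were also tested by exact permutation (SciPy 1.17.1 for rank values). Members and gene lists were chosen with earlier results of these data known, so no test over a list is given. Named genes were the members, up to 4 passing genes of a list by smallest p or else its 2 smallest p, every gene of the receptor, partner, angiopoietin-like and cystatin lists, and the 3 genes most like each member; any other gene was chosen after its values were seen. Alternatives were the replicate number as a block, quantile normalization or median centring, the sets of arrays as random blocks or alone, array weights, no intensity trend, other pseudocounts, averaging a gene's probe sets, a filter on dim genes and leaving out each array. A further pair was chosen after seeing the data: leaving out K289R replicates 6 and 7, and the interquartile range as a covariate. Promoter motifs were exact matches in RefSeq sequences of GRCm38.p6.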

Additional observations from a re-analysis of the deposited data

Results flagged for a closer look

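One of the 12 groups of values tested for a sample far from the rest stood out. Angptl4 in K289R replicate 2 read 9.72 in log2 units, and the nearest K289R array read 8.11. That gap was 0.637 of the whole range of the 7 arrays, above the critical value of 0.568. Chance alone marks about 1 in 20 groups in this way.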

How the results depend on the processing

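The directions of all 6 members were kept in each alternative run, while sizes and calls moved. Angptl4 ranged from 0.095 among replicates 5 to 7 alone to 1.06 among replicates 1 to 4 alone, and Ahsg, 0.055 as reported, was 0.00072 with quantile normalization. Genes called numbered 3678, against 2176 with the sets as random blocks and 1762 among replicates 5 to 7 alone. With quantile normalization 2406 genes were higher and 2028 lower, against 1610 and 2068, with median centring 1102 and 1905, with the interquartile range as covariate 2375 and 2257 and without K289R replicates 6 and 7 1744 and 1674, both of the latter chosen after seeing the data. Members called numbered 3, against 1 with median centring, with random blocks, among replicates 5 to 7 alone and without the intensity trend, and 2 to 3 when 1 array was left out. Fgf21 lost its call among replicates 1 to 4 alone (0.25, adjusted p = 0.218) and kept it in 14 of 14 fits that left out 1 array (0.33 to 0.45). It lies below the median gene, so the filter on dim genes gave no value for it. Angptl4 passed with array weights (0.75, adjusted p = 0.0463, against adjusted p of 0.0585 to 0.734 in the other alternatives), and its differences without 1 array were 0.34 to 0.76. Fetub lost its call with median centring (0.23), random blocks (0.24), replicates 5 to 7 alone (0.22) and no intensity trend (0.25). It also lost the call without any one of WT replicates 2, 4, 5, 6 and 7 or K289R replicates 1, 2, 3, 4 and 7, in a range of 0.19 to 0.30 over all 14 such fits. Rbp4 lost its call with quantile normalization (0.065), median centring (0.11), the replicate block (0.13, adjusted p = 0.0518), random blocks (0.13), replicates 5 to 7 alone (0.089) and no intensity trend (0.13), and ranged from 0.12 to 0.14 without 1 array. Lect2 (-0.17 to -0.08) and Ahsg (0.03 to 0.08) did not pass in any of these fits. The set analyses hold fewer arrays. For the other losses the cause was not tested. Same-numbered arrays of both genotypes had correlations of deviations from -0.30 to 0.56, and 2 of 7 numbers correlated best with their own partner. These values do not show a pairing of the mice by replicate number, and they cannot exclude one. With this block 3838 genes were called, and no other member's call changed. Fgf21 intensities were 26.7 to 54.2, with no detection call.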
